A study of Mus musculus with 18 samples.

Results

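Type IV collagen chains and the multiplexins, collagens of the basement membrane and its edge, were followed in transfected mouse embryonic fibroblasts (MEF). The 8 genes were taken by name from a deposited table of 55450 genes: Col4a1, Col4a2, Col4a3, Col4a4, Col4a5, Col4a6, Col15a1 and Col18a1. All 8 had a row in the table and passed the filter on low counts, which kept 21161 genes, though Col4a4, Col4a6 and Col15a1 never exceeded 37 counts in a library. Poly(A) RNA was sequenced in 18 libraries, 3 in each of 6 groups. Libraries carry the replicate letters c, d and e, and the last one of either Col1a1-miR-29b group is called unlettered here; values are given in that order. MEF cells from a commercial cell bank were transfected in transient fashion with empty pcDNA3 vector, with Col1a1-miR-29b or with CMV-miR-29b, and each plasmid was studied without TGF-β and with TGF-β added 6 h after transfection for 24 h. Both miR-29b plasmids have a pcDNA3 backbone and carry human miR-29b-1. In the first a rat Col1a1 promoter, described in the study as responsive to fibrotic stimulation, drives EGFP and miR-29b and an SV40 promoter drives the marker mRFP1, while in the second the viral CMV promoter, active in most cells, takes the place of the Col1a1 promoter in an otherwise identical plasmid. The empty vector therefore differs from both in the EGFP and mRFP1 markers as well as in the miRNA, and from the first in the Col1a1 promoter. Which promoter the empty vector holds is not stated in the study. Plasmids were dosed by molar amount, so the mass of DNA per volume was larger for Col1a1-miR-29b than for CMV-miR-29b. The mass of empty vector is not stated. The comparisons ask how the chains responded to TGF-β and whether that response or the resting level differed between plasmids.

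Collagen IV forms the sheet-like network of basement membranes. Products of Col4a1 and Col4a2 assemble into the trimer found in nearly all basement membranes, those of Col4a3, Col4a4 and Col4a5 into the trimer of the mature kidney filter, and those of Col4a5 and Col4a6 into a trimer of skin and smooth muscle. Collagens XV and XVIII, the multiplexins, are proteoglycans with an interrupted triple helix, and the C-terminal fragment of collagen XVIII is endostatin. TGF-β is the best known inducer of matrix genes in fibroblasts. The miR-29 family pairs through its seed with 3′ UTRs of many collagen mRNAs and lowers their level or translation.

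The mature miR-29 sequences and the sites matching their seed in the most abundant chains are shown because both miR-29b plasmids carry this miRNA. Whether pairing at these sites had a part in any plasmid difference was not tested. The mature mouse sequences, read from RefSeq for GRCm38.p6, share 1 seed, bases 2 to 8, given in capitals. Mouse miR-29b is encoded by Mir29b-1 on the minus strand (chr6:31063025-31063047) and by Mir29b-2 on the plus strand (chr1:195037091-195037113).
mmu-miR-29a-3p: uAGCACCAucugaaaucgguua
mmu-miR-29b-3p: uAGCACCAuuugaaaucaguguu
mmu-miR-29c-3p: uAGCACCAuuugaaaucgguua

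Annotated 3′ UTRs of GRCm38 were searched on the transcript strand for the 8mer TGGTGCTA, the 7mer-m8 TGGTGCT and the 7mer-A1 GGTGCTA, each match counted once under its longest kind. Of the 8 genes, 7 held at least 1 match, and 5 held at least 2. Over 21039 protein-coding genes with a 3′ UTR, 16.8% held at least 1 match and 3.27% at least 2. Col4a5 held 3 matches, all 8mers, Col4a1 held 1 8mer and 1 7mer-A1, and Col4a2 held 2 7mer-m8 matches. Col4a3 held 4 matches, Col4a4 held 2, and Col4a6 and Col15a1 held 1 each. Col18a1 held none of these letters in its 3′ UTR of 1016 bases. The sites of Col4a1, Col4a2 and Col4a5 follow, with the match in capitals, in the order of their distance from the stop codon. Col4a1 lies on the minus strand and its sites are at chr8:11199761-11199782 and chr8:11199458-11199479. Those of Col4a2, on the plus strand, are at chr8:11448345-11448366 and chr8:11448516-11448537. The plus-strand sites of Col4a5 are at chrX:141688239-141688260, chrX:141688520-141688541 and chrX:141688943-141688964.
Col4a1, first: ccaccgtcacaacaTGGTGCTA
Col4a1, second: cataagaaacccaaaGGTGCTA
Col4a2, first: tgggaaggccacgtTGGTGCTt
Col4a2, second: caccacacccagctTGGTGCTt
Col4a5, first: actgctcccaccaaTGGTGCTA
Col4a5, second: agtattctttttcaTGGTGCTA
Col4a5, last: aattcttattattcTGGTGCTA

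**Figure D1:**
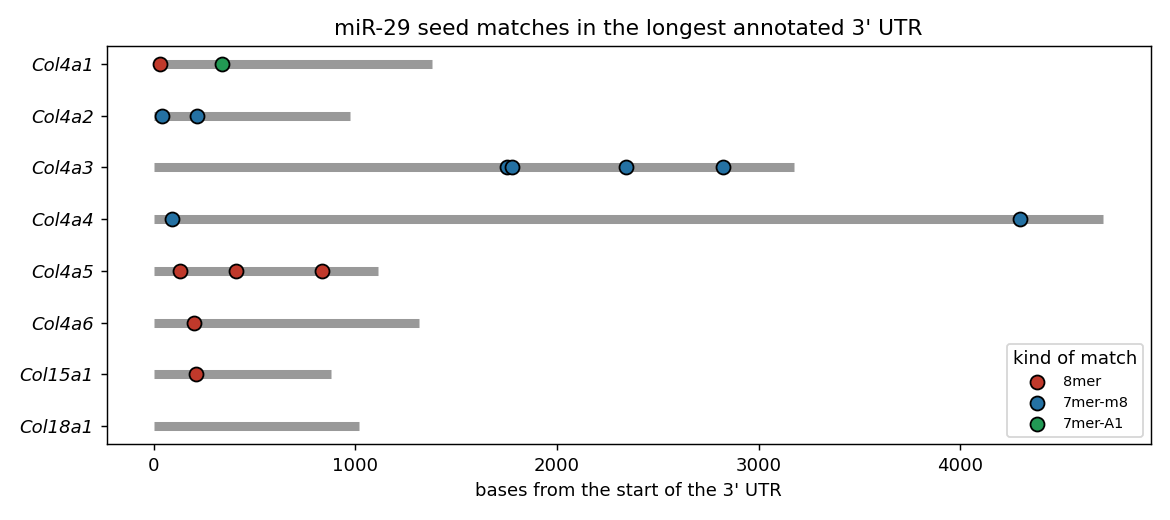
Grey bars give the length of the longest annotated 3′ UTR of each gene in bases, and points mark the start of each miR-29 seed match by kind. Col4a5 carries 3 8mer matches, and the bar of Col18a1 carries no point.

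Each chain gene of collagen IV lies head to head with a partner on the opposite strand. Col4a1 (ENSMUSG00000031502, chr8:11198423-11312826, minus strand) and Col4a2 (ENSMUSG00000031503, chr8:11312805-11449287, plus strand) overlap at their 5′ ends by 22 bases in GRCm38. Col4a3 (ENSMUSG00000079465, chr1:82586921-82722059, plus) and Col4a4 (ENSMUSG00000067158, chr1:82448423-82586849, minus) are 71 bases apart. Col4a5 (ENSMUSG00000031274, chrX:141475385-141689234, plus) and Col4a6 (ENSMUSG00000031273, chrX:141165403-141474076, minus) are 1308 bases apart. Col15a1 (ENSMUSG00000028339) lies at chr4:47208161-47313167 on the plus strand and Col18a1 (ENSMUSG00000001435) at chr10:77052178-77166548 on the minus strand. The shared start of Col4a1 and Col4a2, whose levels are set against each other further on, is printed for the plus strand of chr8:11312705-11312926, with the overlap of both genes in capitals.
Col4a1/Col4a2 start: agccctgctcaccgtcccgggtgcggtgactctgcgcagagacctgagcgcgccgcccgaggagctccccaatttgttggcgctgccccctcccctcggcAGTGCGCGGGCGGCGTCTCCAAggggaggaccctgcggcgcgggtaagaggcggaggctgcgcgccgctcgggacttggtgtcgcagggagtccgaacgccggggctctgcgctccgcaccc

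In RefSeq promoter windows of equal length on GRCm38.p6, the GC box GGGCGG, searched on both strands, was found in those of Col4a1, Col4a2, Col4a5, Col4a6 and 1 of 2 windows of Col18a1, and in 35.7% of 32851 promoter windows. The letters CCAAT were found in those of Col4a1, Col4a2, Col4a5 and the same window of Col18a1, against 37.4% of all windows. The TATA box TATAAA and the palindromic Smad element GTCTAGAC were found in none of the 8 windows searched, which are those of 7 genes without Col4a3, against 13.6% and 0.213% of all windows. The window of Col4a1 held 1 GC box and that of Col4a2 held 3. The windows of Col4a1 and Col4a2 share bases, and the printed stretch holds 2 GC boxes and 1 CCAAT.

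Total counts per library ran from 65898017 to 80332633, with a median of 74155860. The count of Mir29b-1, the precursor whose human form the plasmids carry, was 0 in all 6 empty vector libraries, 0 to 1 with Col1a1-miR-29b, 2 to 6 with Col1a1-miR-29b and TGF-β, 110 to 309 with CMV-miR-29b and 203 to 293 with CMV-miR-29b and TGF-β. Mir29b-2 had 0 to 1 counts per library. Poly(A) libraries read precursor transcripts, so mature miR-29b was not measured. Of 10 fibroblast markers, 9 exceeded 3 counts in a library, led by Col1a1, Col1a2 and Vim, while Lum was at 0 throughout and Thy1 did not exceed 0.114 CPM, the count scaled to the library total. Endothelial and epithelial markers were mostly low. The endothelial list summed to 1.42 to 3.88 CPM over the 18 libraries with Emcn at 0. Of 7 epithelial markers only Krt19, at 36.8 to 83.1 CPM, was above 1 CPM. The smooth muscle list was not low, with a sum of 112.7 to 169.0 CPM, led by Smtn at 86.7 to 138.1 CPM.

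Read per length, as FPKM, a count scaled for gene length and library total, the 8 genes fell into an abundant and a scarce set of 4 each. In empty vector cells without TGF-β the order was Col4a5 (13.1 ± 0.18 FPKM, SD, n = 3), Col4a1 (11.6 ± 0.16), Col4a2 (9.02 ± 0.26) and Col18a1 (3.25 ± 0.13), and no range of a gene overlapped that of the next. Col4a3 followed at 0.0885 ± 0.0087 FPKM. Col4a4 at 0.0245 ± 0.015 and Col4a6 at 0.0238 ± 0.0091 FPKM overlapped each other, and Col15a1 stood last, from 0.00655 to 0.00664 FPKM.

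With TGF-β the order of the abundant genes changed in empty vector cells. Col4a1 came first at 20.6 ± 3.3 FPKM (SD, n = 3), then Col4a2 at 12.7 ± 0.43, Col4a5 at 8.39 ± 0.20 and Col18a1 at 4.78 ± 0.28, again without overlap between neighbours. Each group with TGF-β had this order. Without TGF-β, Col4a1 led Col4a5 in both miR-29b groups, at 14.4 ± 0.062 against 10.8 ± 0.033 FPKM (n = 2) with Col1a1-miR-29b and at 12.9 ± 0.74 against 11.3 ± 0.69 FPKM (n = 3) with CMV-miR-29b.

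As a share of the summed FPKM of the 6 collagen IV chains, Col4a5 made up 38.8 ± 0.043% in empty vector cells and 20.2 ± 1.9% after TGF-β (SD, n = 3). Col4a1 went from 34.2 ± 0.47% to 49.0 ± 4.1% and Col4a2 from 26.6 ± 0.47% to 30.5 ± 2.3%. Col4a3, Col4a4 and Col4a6 stayed under 1% together in these groups. The sum itself was 33.9 ± 0.49 FPKM without and 41.8 ± 3.2 FPKM with TGF-β.

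**Figure D2:**
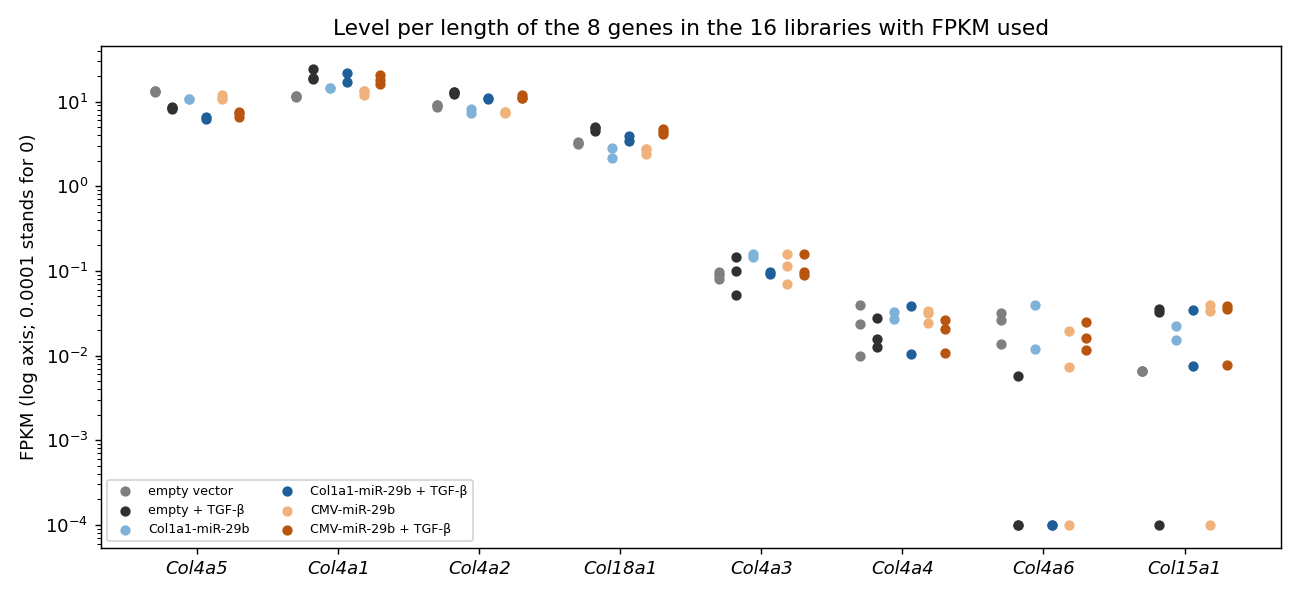
Points give the FPKM of each gene in 16 libraries on a log axis, by group, with 0.0001 standing for 0 in the deposited values. Col4a1, Col4a2, Col4a5 and Col18a1 sit well above the other 4 genes in every library, and Col4a5 is the abundant gene that is lower in the TGF-β groups.

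TGF-β raised Col4a1, Col4a2 and Col18a1 and lowered Col4a5 in cells of each plasmid. In empty vector cells 3 of the 8 genes were called higher and 1 lower, where 3.88% of all genes tested were called higher and 2.01% lower. With Col1a1-miR-29b the same counts stood against 3.0% and 1.32%, and with CMV-miR-29b against 3.08% and 1.87%. Calls are adjusted p under 0.05 in edgeR's quasi-likelihood test, and DESeq2 called 4 of the 8 in each of the 3 comparisons, against 9.21%, 7.16% and 6.81% of the genes it tested, in either direction. In RNA from whole cultures, fewer cells that express a gene and less of its RNA per cell cannot be told apart.

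Col4a1, the more abundant chain of the common trimer in counts, had TMM-scaled levels of 96.9, 95.5 and 97.4 CPM in empty vector replicates c, d and e, and of 157.3, 160.8 and 209.9 CPM with TGF-β. All treated libraries lay above all untreated ones, and replicate e stood apart from the other two treated libraries. The rise was 1.82-fold (log2 fold change 0.87, SE 0.11, adjusted p = 0.000123), and without replicate e of the treated group the log2 fold change was 0.71. With Col1a1-miR-29b, Col4a1 was at 118.1, 117.0 and 114.0 CPM without and 141.4, 182.5 and 174.2 CPM with TGF-β, a rise of 1.43-fold (log2 0.51, SE 0.11, adjusted p = 0.0128). In CMV-miR-29b cells the levels were 112.3, 110.4 and 100.3 CPM without and 173.0, 151.4 and 135.8 CPM with TGF-β, a rise of 1.42-fold (log2 0.51, SE 0.11, adjusted p = 0.0121). No untreated library reached a treated one in either miR-29b comparison. These latter 2 calls were less firm. With Col1a1-miR-29b the adjusted p was 0.0622 without the unlettered untreated library, 0.0729 without treated replicate d and 0.0588 without the unlettered treated library, and with CMV-miR-29b it was 0.0662 without untreated replicate e and 0.0644 without treated replicate c. Limma on log2(FPKM + 1) gave 0.204 for the Col1a1-miR-29b comparison.

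Col4a2, which supplies the other chain of that trimer, varied less between replicates. Its level was 64.9, 68.2 and 66.9 CPM in empty vector cells and 99.7, 91.3 and 97.9 CPM with TGF-β, which gave a rise of 1.44-fold (log2 0.53, SE 0.05, adjusted p = 5.9e-06). With Col1a1-miR-29b it went from 53.2, 59.3 and 58.2 CPM to 79.5, 82.7 and 79.6 CPM, 1.42-fold (log2 0.50, SE 0.05, adjusted p = 1.38e-05). With CMV-miR-29b it went from 55.5, 55.2 and 53.3 CPM to 80.7, 88.3 and 82.8 CPM, 1.53-fold (log2 0.62, SE 0.05, adjusted p = 1.4e-06). In all 3 comparisons the treated and untreated libraries were apart, and the untreated miR-29b libraries lay below every untreated empty vector library.

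Col4a5, the X-linked chain that belongs to both tissue-restricted trimers, moved the other way. It stood at 97.8, 98.9 and 99.1 CPM in empty vector cells and at 65.5, 64.8 and 63.3 CPM with TGF-β, a level 0.655 times as high (log2 −0.61, SE 0.05, adjusted p = 2.34e-06). With Col1a1-miR-29b it was at 79.5, 78.9 and 75.3 CPM without and 46.4, 48.9 and 47.7 CPM with TGF-β, 0.612 times as high (log2 −0.71, SE 0.05, adjusted p = 7.71e-07). In CMV-miR-29b cells the levels were 91.1, 82.7 and 79.9 CPM without and 56.2, 55.5 and 49.9 CPM with TGF-β, 0.638 times as high (log2 −0.65, SE 0.05, adjusted p = 1.4e-06). Every treated library was below every untreated library of the same plasmid. Its head-to-head partner Col4a6 gave 10 to 23 counts in untreated and 0 to 4 in TGF-β-treated empty vector libraries, a difference that did not pass the adjusted threshold (adjusted p = 0.286 from edgeR). Counts of Col4a6 were 8 to 27 and 0 to 18 with Col1a1-miR-29b and 0 to 14 and 8 to 15 with CMV-miR-29b (log2 0.91), so untreated and treated libraries overlapped.

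Col18a1, the source of endostatin, had 26.6, 24.4 and 25.6 CPM in empty vector cells and 39.9, 35.3 and 40.2 CPM with TGF-β, a rise of 1.51-fold (log2 0.59, SE 0.10, adjusted p = 0.00102). With Col1a1-miR-29b it went from 21.8, 16.7 and 20.5 CPM to 26.6, 30.6 and 29.4 CPM, 1.47-fold (log2 0.56, SE 0.10, adjusted p = 0.00233). With CMV-miR-29b it went from 19.2, 21.7 and 21.8 CPM to 34.7, 32.3 and 37.0 CPM, 1.66-fold (log2 0.73, SE 0.10, adjusted p = 0.000164). Treated and untreated libraries did not overlap for any plasmid. The 3′ end of Col18a1 is overlapped on the opposite strand by Slc19a1, the reduced folate carrier, at 957 to 1318 counts per library. Counting by strand is not given in the sources used here, so reads in the overlap cannot be told apart. Slc19a1 had log2 fold changes of 0.15, 0.075 and 0.036 with TGF-β in the same order of plasmids and was not called by edgeR. Against empty vector it was at −0.14 without and −0.22 with TGF-β for Col1a1-miR-29b (SE 0.095 each). For CMV-miR-29b it was at −0.090 and −0.20, and none of these was called.

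**Figure D3:**
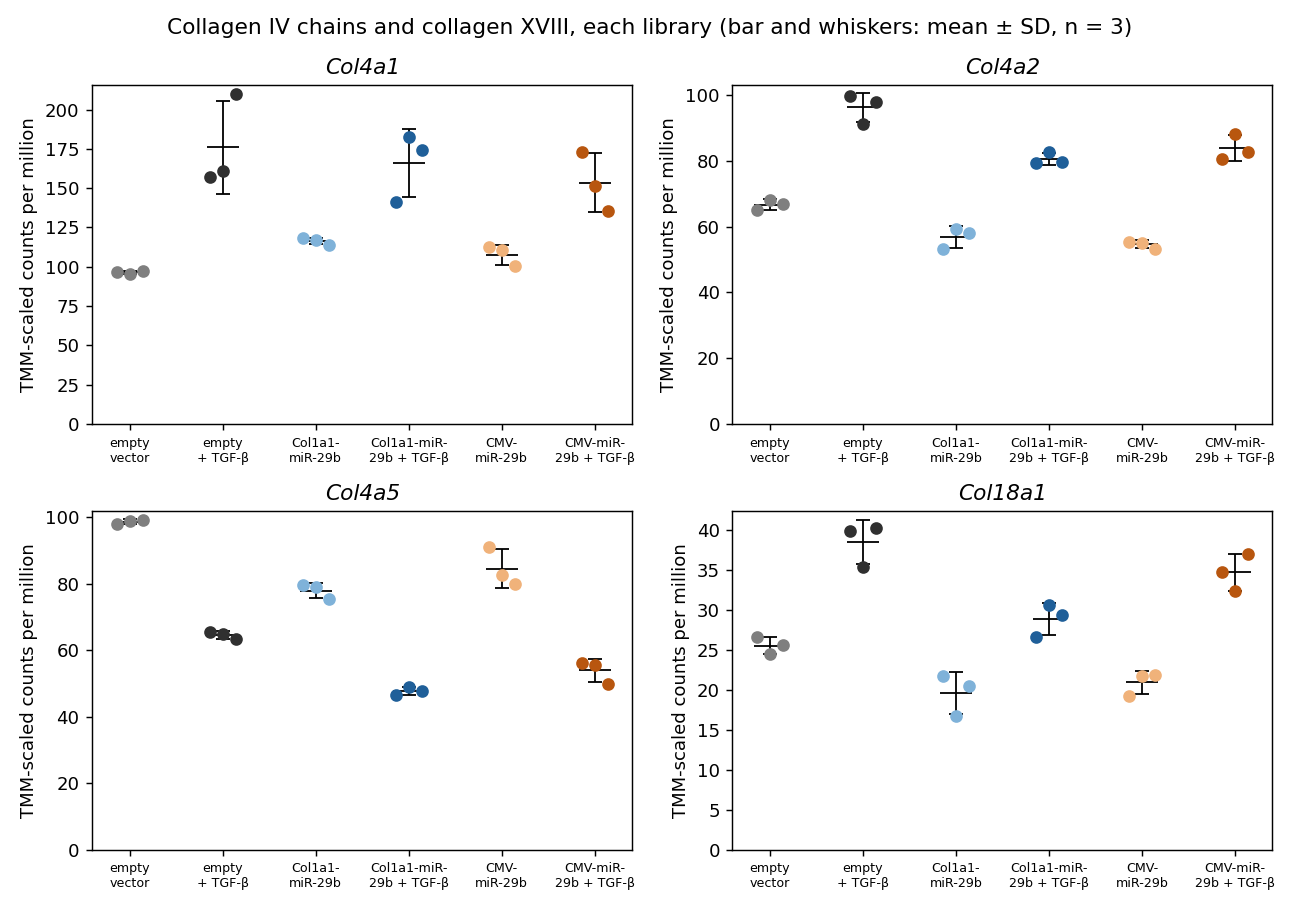
Each point is the TMM-scaled level in CPM of 1 library, by group, with the mean and SD of 3 libraries, for Col4a1, Col4a2, Col4a5 and Col18a1 on axes that start at 0. TGF-β groups lie above their untreated group for Col4a1, Col4a2 and Col18a1 and below it for Col4a5, with no overlap.

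Several marker lists other than that of fibroblasts moved with TGF-β as well. In empty vector cells the endothelial list summed to 1.42 to 1.97 CPM without and 3.27 to 3.88 CPM with TGF-β, and the epithelial list, nearly all of it Krt19, to 68.7 to 83.8 and 40.0 to 50.9 CPM. The smooth muscle list summed to 117.8 to 126.6 CPM without and 167.1 to 169.0 CPM with TGF-β. It includes Acta2, which the study reports as raised by TGF-β in these cells and as related to fibrosis. The macrophage and leukocyte list summed to 11.9 to 12.8 CPM without and 9.36 to 11.7 CPM with TGF-β. The Schwann and glial list overlapped, at 1.46 to 2.67 and 1.52 to 2.17 CPM. The part of these lists in the results for the collagen IV genes was not tested. Pecam1, Cdh5 and Kdr did not exceed 1.99 CPM in any library.

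The scarce genes gave no call in any comparison. Col4a3, a chain of the kidney trimer, had 43 to 135 counts per library with a median of 86, and its highest level was 0.159 FPKM. Col4a4, its partner, had 10 to 37 counts. Col4a6 had 0 to 27 counts with 5 of 18 libraries at 0, and Col15a1 had 0 to 23 counts with 3 libraries at 0. The Col15a1 count was 4 in each of the 3 untreated empty vector libraries. Among counts from 1 to 40, 33.8% to 36.7% per library were multiples of 4, where an even spread gives 25%, and how counts were formed is not given in the sources used here. C430014B12Rik, a non-coding gene on the opposite strand, overlaps the 3′ end of Col4a3 with 8 to 47 counts. A change of these 4 genes was not detectable at this depth unless large: the 95% interval of the TGF-β response in empty vector cells ran from −0.52 to 0.91 on the log2 scale for Col4a3 and from −1.47 to 0.78 for Col4a4.

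Whether the TGF-β response differed between plasmids was tested as a difference of log2 fold changes. None of the 8 genes was called for either miR-29b plasmid by edgeR, which called 0.0% of all genes for Col1a1-miR-29b and 0.0% for CMV-miR-29b, or by DESeq2, which called 0.108% and 0.0831%. In each, 1 of the 8 had an unadjusted p under 0.05 in edgeR, as did 4.54% and 5.34% of all genes. That gene was Col4a1, whose response was smaller by 0.35 with Col1a1-miR-29b (difference −0.35, 95% interval −0.69 to −0.017) and with CMV-miR-29b (difference −0.35, interval −0.69 to −0.020). Its adjusted p was 1.0 for the former and 0.922 for the latter. Without empty vector replicate e of the TGF-β group the differences were −0.19 and −0.20. Both differences use the same empty vector libraries. For the other abundant genes the intervals ran from −0.18 to 0.13 (Col4a2), −0.26 to 0.066 (Col4a5) and −0.32 to 0.25 (Col18a1) with Col1a1-miR-29b, and from −0.067 to 0.24, −0.20 to 0.12 and −0.15 to 0.43 with CMV-miR-29b.

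Col1a1-miR-29b cells had less Col4a2, Col4a5 and Col18a1 mRNA than empty vector cells, both without and with TGF-β, and Col4a1 passed the test in neither comparison. Without TGF-β 3 of the 8 genes were called lower, where 3.7% of all genes were called lower and 2.57% higher. With TGF-β the same 3 genes were called lower, against 7.63% of all genes lower and 5.31% higher. DESeq2 called 3 of the 8 in each, against 15.7% and 20.6% of the genes it tested, in either direction. All libraries behind these calls, given by replicate above, were below every empty vector library of the same treatment. How many of all genes were separated in this way was not counted. The sums of the fibroblast and epithelial marker lists were lower in these comparisons as well. The fibroblast list summed to 2193 to 2515 CPM with empty vector and 1793 to 1993 CPM with Col1a1-miR-29b. With TGF-β it summed to 4367 to 5216 and 3415 to 3539 CPM. Most of this sum is Col1a1 and Col1a2, themselves collagen genes, a class that the study reports as lowered by miR-29b. It therefore does not measure fibroblasts apart from collagen expression. The epithelial list summed to 68.7 to 83.8 and 63.9 to 64.3 CPM, and with TGF-β to 40.0 to 50.9 and 37.7 to 38.1 CPM. Not every list was lower. The macrophage and leukocyte list stood at 11.9 to 12.8 and 11.9 to 13.9 CPM. With TGF-β it stood at 9.36 to 11.7 and 10.8 to 13.0 CPM. The endothelial list stood at 1.42 to 1.97 and 1.75 to 2.13 CPM, and with TGF-β at 3.27 to 3.88 and 2.83 to 3.37 CPM. The smooth muscle list overlapped without TGF-β, at 117.8 to 126.6 and 112.7 to 123.1 CPM. With TGF-β it was lower in all Col1a1-miR-29b libraries, at 167.1 to 169.0 and 157.9 to 162.9 CPM. The part of these lists in the results for the 3 collagens was not tested.

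Among untreated groups the log2 fold change was −0.34 for Col4a5 (SE 0.05, adjusted p = 0.00352), −0.23 for Col4a2 (SE 0.05, adjusted p = 0.0181) and −0.38 for Col18a1 (SE 0.10, adjusted p = 0.0307). These are levels 0.79, 0.854 and 0.769 times those of empty vector cells. Col4a1 was 1.20 times as high (log2 0.27, SE 0.11, adjusted p = 0.171), and its 3 Col1a1-miR-29b libraries lay above the 3 empty vector libraries. The calls of Col4a2 and Col18a1 rested on single libraries: for Col4a2 the adjusted p was 0.0559 without empty vector replicate d and 0.0611 without Col1a1-miR-29b replicate c, and for Col18a1 it was 0.0955 without empty vector replicate c, 0.0554 without d, 0.0594 without e, 0.0973 without Col1a1-miR-29b replicate d and 0.0599 without the unlettered library. When the fit was offset for the length and GC content of transcripts, Col4a2 was at −0.13 (adjusted p = 0.198) and Col18a1 at −0.30 (adjusted p = 0.0759), while Col4a5 stayed called. In a fit of these groups alone Col4a2 (adjusted p = 0.0706) and Col18a1 (adjusted p = 0.0991) were not called, and Col4a1 was called higher (log2 0.27, adjusted p = 0.0277).

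Among TGF-β-treated groups the log2 fold change was −0.44 for Col4a5 (SE 0.05, adjusted p = 0.000418), −0.26 for Col4a2 (SE 0.05, adjusted p = 0.00452) and −0.41 for Col18a1 (SE 0.10, adjusted p = 0.0104), that is 0.739, 0.837 and 0.751 times the empty vector level. Col4a1 was at −0.084 (SE 0.11, adjusted p = 0.713), with overlapping libraries and a 95% interval from −0.32 to 0.15, and it lay at 0.067 without empty vector replicate e of the TGF-β group. The call of Col18a1 was lost without that same library (adjusted p = 0.0557) or without Col1a1-miR-29b replicate c of the TGF-β group (adjusted p = 0.0579). Offsets for length and GC content left Col4a2 at −0.16 (adjusted p = 0.082). Col4a5, with 3 seed matches, and Col4a2, with 2, are among the lowered genes, as is Col18a1, with none, while Col4a1 holds 2. Whether the matches had a part in these differences was not tested, and the plasmids differ in the markers as well as in the miRNA.

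CMV-miR-29b, the plasmid with the higher precursor count, gave changes in the same direction that edgeR did not call. Without TGF-β none of the 8 genes was called, against 0.00473% of all genes. An unadjusted p under 0.05 was found for 3 of the 8 and 5.46% of all genes, and DESeq2 called 1 of the 8, Col4a2, and 0.19% of the genes it tested. The log2 fold changes were −0.29 for Col4a2 (SE 0.05, adjusted p = 0.211), −0.22 for Col4a5 (SE 0.05, adjusted p = 0.618) and −0.29 for Col18a1 (SE 0.10, adjusted p = 0.819). Their libraries lay below all empty vector libraries, but the share of all genes separated in this way was not computed. Col4a1 was at 0.16 with an interval from −0.081 to 0.39, and its CMV-miR-29b libraries lay above all empty vector libraries. With TGF-β none was called, against 0.00945% of all genes, or 2 genes, which became 160 genes without empty vector replicate d of the TGF-β group. An unadjusted p under 0.05 was found for 2 of the 8 and 12.0% of all genes, and DESeq2 called 2 of the 8, Col4a2 and Col4a5, and 1.68% of the genes it tested. Here Col4a5 was at −0.26 (SE 0.05, adjusted p = 0.121), Col4a2 at −0.20 (SE 0.05, adjusted p = 0.18), Col18a1 at −0.15 with an interval from −0.35 to 0.054 and Col4a1 at −0.20 with an interval from −0.44 to 0.039. Comparisons of both plasmids use the same empty vector libraries.

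Set against each other, the miR-29b plasmids gave no call among the 8 genes. Without TGF-β 1.81% of all genes were called and with TGF-β 1.93%. By unadjusted p under 0.05 there was 1 of the 8 without TGF-β, Col4a5, beside 16.4% of all genes, and there were 2 with TGF-β, Col4a5 and Col18a1, beside 15.6%, shares near those of all genes. DESeq2 called 0 of the 8 without TGF-β, beside 7.69% of the genes it tested, and 1 with TGF-β, Col4a5, beside 7.73%. Without TGF-β Col4a5 was higher with CMV-miR-29b by 0.12 (95% interval 0.0029 to 0.23), Col18a1 by 0.090 (−0.11 to 0.29), and Col4a2 and Col4a1 were lower by differences of −0.058 (−0.17 to 0.052) and −0.11 (−0.35 to 0.13). With TGF-β the differences were 0.18 for Col4a5 (0.061 to 0.29), 0.26 for Col18a1 (0.061 to 0.47), 0.059 for Col4a2 (−0.050 to 0.17) and −0.11 for Col4a1 (−0.35 to 0.12).

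**Figure D4:**
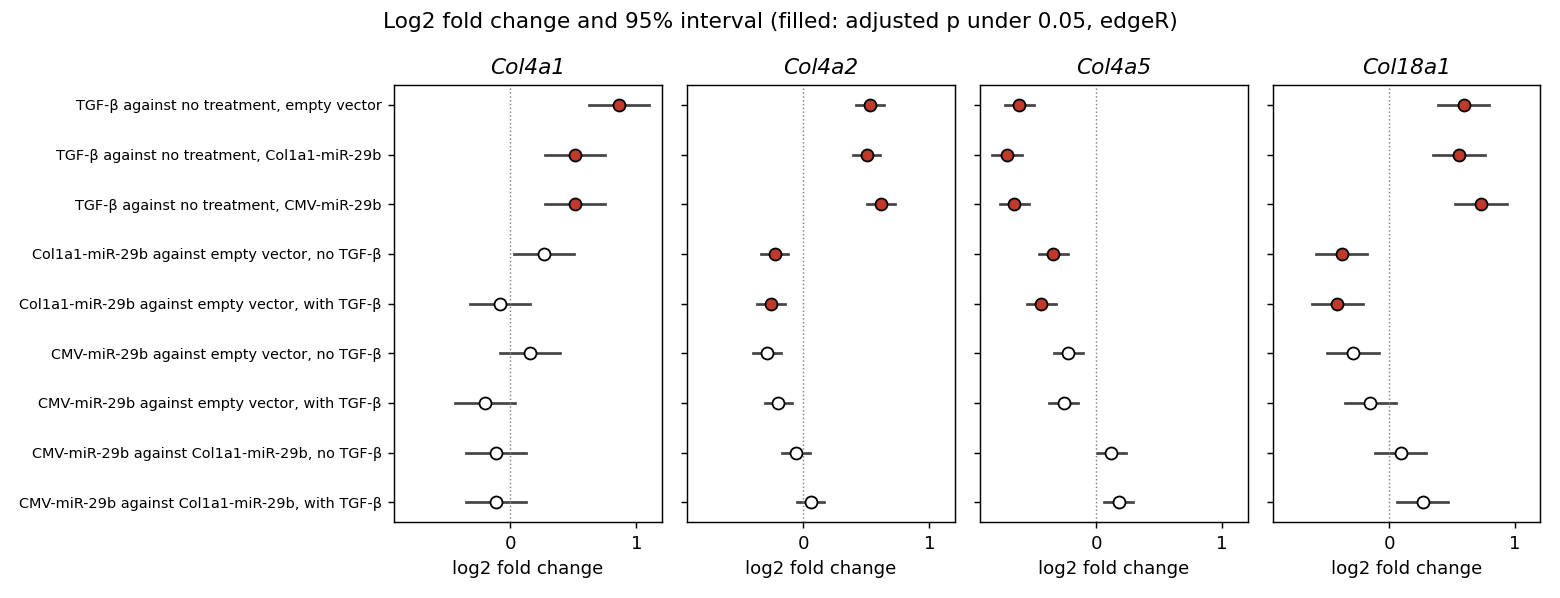
Points give the log2 fold change of each abundant gene in 9 comparisons with its 95% interval as a line, filled where the adjusted p was under 0.05 in edgeR. All 3 TGF-β comparisons are filled for each gene, the Col1a1-miR-29b comparisons with empty vector are filled for Col4a2, Col4a5 and Col18a1 and open for Col4a1, and the CMV-miR-29b comparisons with empty vector are open.

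The proportion between the chains of the common trimer also differed between groups. The ratio of Col4a1 to Col4a2 counts, which is not corrected for transcript length, was 1.49, 1.40 and 1.46 in empty vector cells and 1.58, 1.76 and 2.15 with TGF-β. With Col1a1-miR-29b it was 2.22, 1.97 and 1.96 without and 1.78, 2.21 and 2.19 with TGF-β. With CMV-miR-29b it was 2.02, 2.0 and 1.88 without and 2.14, 1.72 and 1.64 with TGF-β. Untreated empty vector libraries had the 3 lowest ratios of all 18, and all other groups overlapped. As FPKM the mean ratio was 1.29 ± 0.041 in untreated empty vector cells and 1.86 ± 0.16 (n = 2) and 1.75 ± 0.068 (n = 3) in untreated Col1a1-miR-29b and CMV-miR-29b cells.

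In exact two-sided permutation tests within treatment, the log2 ratio was higher with Col1a1-miR-29b than with empty vector by 0.34 (p = 0.01, adjusted over the 3 ratio tests p = 0.03, smallest possible p = 0.005), by 0.50 without TGF-β and by 0.18 with it. With CMV-miR-29b it was higher by 0.22 (exact permutation p = 0.08, adjusted p = 0.12), by 0.44 without TGF-β and by 0.0059 with it. Without empty vector replicate e of the TGF-β group the CMV-miR-29b difference was 0.28 (exact permutation p = 0.03). Across plasmids TGF-β changed the log2 ratio by 0.071 (exact permutation p = 0.416), with differences of 0.32 in empty vector cells, 0.0012 for Col1a1-miR-29b and −0.11 for CMV-miR-29b. The overlap of both genes at their 5′ ends covers 22 bases, and reads there cannot be assigned without strand.

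**Figure D5:**
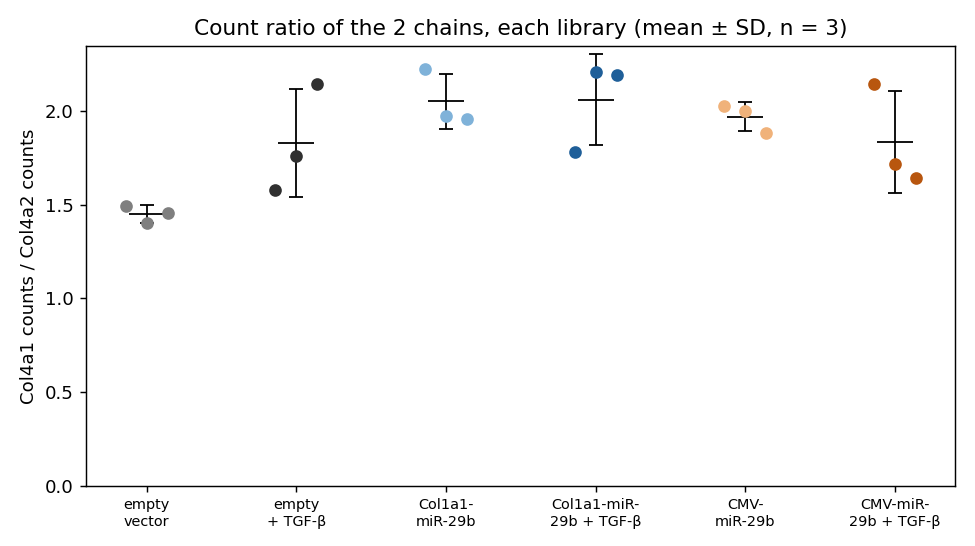
Points give the ratio of Col4a1 to Col4a2 counts in each library, with the mean and SD of 3 libraries per group. The untreated empty vector libraries, at 1.40 to 1.49, lie below all others, which span 1.58 to 2.22.

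Genes that act with collagen IV or with related matrix proteins were counted in 4 lists. The counts stand beside 3.88% of all genes raised and 2.01% lowered by TGF-β in empty vector cells. Of 26 basement membrane partners, 20 were tested, and TGF-β in empty vector cells raised 4 and lowered 2, with a median log2 fold change of −0.075 beside 0.0023 over all genes. Lamb3, a laminin chain of epithelial basement membranes, rose by 1.41 and Fbln2, fibulin-2, by 0.70, while Nid1, nidogen-1, which links laminin to collagen IV, fell by 0.52 and Lamb2, a laminin chain, by 0.31. Of 25 genes of collagen IV assembly and modification, 23 were tested, 7 rose and none fell, with a median of 0.14. P4ha3, a prolyl 4-hydroxylase subunit, rose by 0.89 and Sparc, a collagen-binding glycoprotein, by 0.40, and the smallest rises were those of P4hb, protein disulfide isomerase, at 0.13 and Plod2, a lysyl hydroxylase, at 0.24.

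The receptor list holds 15 genes, all tested, and includes receptors that mainly bind other collagens or laminin. Of these 15, 4 rose and 3 fell with TGF-β, with a median of 0.023. Itga11, a collagen-binding integrin subunit, rose by 2.59 and Itgb3, an integrin subunit, by 1.81, while Adgrg6, an adhesion receptor that binds collagen IV, fell by 0.57 and Itga3, a laminin-binding integrin subunit, by 0.40. Of 19 genes of collagen IV degradation and its control, 17 were tested, 4 rose and none fell, with a median of 0.14. These 4 were Timp3 at 1.31 and Timp1 at 0.73, both inhibitors of matrix metalloproteinases, Bmp1, a procollagen proteinase, at 0.71 and Mmp14, a membrane-bound metalloproteinase, at 0.64.

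With Col1a1-miR-29b against empty vector, 3 of 20 basement membrane partners tested were lower without TGF-β and 5 of 20 with it, and none was higher. Of all genes, 3.7% and 7.63% were called lower and 2.57% and 5.31% higher. Hspg2, perlecan, was at −0.35 and −0.34 and Lama5, a laminin chain, at −0.22 and −0.27 in the respective comparisons. Nid1 was called at −0.17 without TGF-β, and Lama3, Fras1 and Lamb1 were called at −0.89, −0.74 and −0.23 with it. Of the 23 assembly genes tested 4 were lower and 1 higher in each comparison. Sec24d, a coat protein that carries procollagen out of the endoplasmic reticulum, was at −0.41 and −0.43, Hsp90b1, a chaperone, at −0.28 and −0.25 and P4hb at −0.15 and −0.12, whereas Crtap, of the prolyl 3-hydroxylase complex, was higher at 0.24 and 0.35. P4ha2 without TGF-β (−0.19) and Sec23a with it (−0.25) completed the assembly genes called. Of the 15 genes of the receptor list, which is not limited to receptors of collagen IV, 2 were lower in each. Ddr2, a collagen-binding receptor tyrosine kinase, was at −0.41 and −0.55 and Itga3 at −0.45 and −0.37. Of 17 degradation genes 3 were called without and 5 with TGF-β. Mmp14 was lower at −0.33 and −0.34 and Timp2 and Plau were higher, Timp2 at 0.24 and 0.32 and Plau, urokinase, at 0.49 and 0.64, and with TGF-β Plat at 0.18 and Ctsl at 0.23 were higher too. With CMV-miR-29b none of the 4 lists held a gene called against empty vector. Of all genes, only 0.00473% were called without TGF-β and 0.00945% with it.

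Directly between miR-29b plasmids, CMV-miR-29b cells had more Sec24d (0.29 without and 0.26 with TGF-β), Hsp90b1 (0.21 and 0.18) and Ddr2 (0.35 and 0.35) than Col1a1-miR-29b cells. P4ha2 was higher by 0.19 and Timp2 lower at −0.27 without TGF-β, and Lama5 was higher by 0.23 and Sparc lower at −0.21 with it.

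Over the 18 libraries, the TMM-scaled log2 levels of the abundant genes moved together in part. Pearson's r was 0.79 between Col4a1 and Col4a2, 0.92 between Col4a2 and Col18a1 and 0.72 between Col4a1 and Col18a1, and it was −0.81, −0.65 and −0.58 between Col4a5 and Col4a1, Col4a2 and Col18a1. These values describe libraries that share groups of treatment and plasmid. Among 13911 other genes with a mean of at least 1 CPM, those most like Col4a2 were the fibrillar collagen genes Col5a2 (r = 0.98), Col5a1 (0.97) and Col1a2 (0.97). Those most like Col4a1 were Gxylt2 (0.96), Dusp4 (0.95) and 9930111J21Rik1 (0.94). For Col4a5 they were Nid1 (0.97), Lcn2 (0.96) and Selenbp1 (0.96), and for Col18a1 they were Myo1e (0.96), Creb3l2 (0.95) and Nt5e (0.95). Among the scarce genes, the genes most like them reached r = 0.85 (Exd1 with Col4a3), 0.77 (Gm46404 with Col4a4), 0.75 (Tm2d1 with Col4a6) and 0.83 (Arhgap31 with Col15a1), which in counts this sparse are not findings.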

How the data were processed

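RNA of 18 libraries was measured by poly(A) sequencing. The authors deposited 1 table with a whole-number count per gene and library, not normalized, and an FPKM value scaled for length and library total, in which 0.0001 stands for 0. The submitters' processing notes name cutadapt, FastQC, HISAT2, StringTie and mm9, the study's methods name an Ensembl genome, and 52506 of 55450 gene coordinates equal GENCODE M21 on GRCm38, the build used here. How counts were taken, and whether by strand, is not given in the sources used here. In both Col1a1-miR-29b groups 1 library has a column whose letter no sample title has. It was used as an unlettered library with its counts, and its FPKM, 2 columns in all, was not used. Columns with the authors' own fold changes and p-values were not used.

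Counts were tested with edgeR 4.0.16 in R 4.3.3 (filterByExpr, TMM, 1 mean per group over 18 libraries, quasi-likelihood F tests, Benjamini-Hochberg over 21161 genes, threshold 0.05). SEs and 95% intervals come from the F statistic. Whether libraries of compared groups overlap is given as description, without the share over all genes, which was not computed. Ratios were tested by exact permutation, with all label arrangements enumerated in Python 3.11.15 with numpy 2.4.6. Scripts were tested on simulated data. Alternatives were DESeq2 1.42.0, its size factors, total-count scaling, filters of 1 count in any or 10 in all libraries, fits of compared groups alone, a replicate block, length and GC offsets, robust dispersions, counts divided by 4, each library left out, and limma 3.58.1 on log2 FPKM with pseudocounts of 1 or 0.1. The floor of detection was 3 counts, for counting error only.

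Named are all 8 genes, the miR-29b precursors, the 3 genes most correlated with each of the 8 among genes with a mean of at least 1 CPM, and, from 4 lists, the 2 largest and 2 smallest log2 fold changes called for TGF-β in empty vector cells and all called in a plasmid comparison. The genes and lists were chosen with earlier results of these data known. The study states repeated experiments without saying how they were separated, so p-values measure the spread between these libraries, which may be technical. Deviations from group means correlated at 0.0143 over 36 pairs of the same replicate letter and at −0.00764 over 70 pairs of different letters, so letters were not used as pairs.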

Additional observations from a re-analysis of the deposited data

How the results depend on the processing

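The 4 calls of TGF-β in empty vector and in CMV-miR-29b cells stayed within 1.5 times that number under every alternative. With the replicate block the count of genes called for Col1a1-miR-29b against empty vector without TGF-β went from 3 to 1, and the same libraries without the block also gave 1. The block also ended the calls of Col4a1 for TGF-β with CMV-miR-29b and of Col18a1 for Col1a1-miR-29b with TGF-β. The call of Col4a1 for TGF-β with Col1a1-miR-29b was lost on the lettered libraries with the block (adjusted p = 0.266) and without it (0.171). With the block plus length and GC offsets the count was 0 for Col1a1-miR-29b against empty vector without TGF-β and 1 with TGF-β. For TGF-β in Col1a1-miR-29b cells it was 2. Over all genes that fit called 151, 677 and 412 of 21858 in the same order. For Col1a1-miR-29b against empty vector without TGF-β, length and GC offsets alone gave 1, as did limma on log2(FPKM + 1) and log2(FPKM + 0.1). Leaving out single libraries gave 1 to 3, lowest without empty vector replicate d. Over all genes the offsets gave 1207 of 21161 and limma 530 and 449 of 18861. Without that replicate 567 of 21949 were called. DESeq2 called 1 gene without and 2 with TGF-β for CMV-miR-29b against empty vector, and 1 between miR-29b plasmids with TGF-β, where edgeR called 0. Only values near 0 changed sign. Col4a1 in Col1a1-miR-29b against empty vector with TGF-β was 0.0097 with the offsets, and −0.17 to 0.067 over single libraries left out. Col18a1 between miR-29b plasmids without TGF-β ran from −0.0070 to 0.17. Differences in TGF-β response ran from −0.077 to 0.015 (Col4a2) and −0.13 to 0.042 (Col18a1) with Col1a1-miR-29b and from −0.073 to 0.028 (Col4a5) with CMV-miR-29b, and limma gave 0.0062 for Col4a2 and 0.0045 for Col4a5. The Col4a1 to Col4a2 ratio difference with Col1a1-miR-29b was 0.39 from same-letter pairs in the replicate block (exact permutation p = 0.125, the smallest that 4 pairs allow, with all 4 above 0), and that with CMV-miR-29b ran from 0.16 to 0.28 over single libraries left out. The cause of these shifts was not tested. Depth limits the 4 scarce genes, with at most 135 counts.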
